A study of Mus musculus with 5 samples.

Results

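Macrophages grown from the bone marrow of C3H/ARC mice and left unstimulated were compared with whole C57BL6/J embryos at day 17.5 on a single 2-colour cDNA array. This 0 h array is 1 of 5 arrays of a lipopolysaccharide (LPS) time course. A gene was counted as measured where at least 1 probe with exactly 1 gene symbol had a value at 0 h, which held for 14500 of 19828 probes and gave 8953 genes. Those genes, on that array, are described below, grouped by what their products do. The cultures had received human CSF-1, the growth factor of the macrophage lineage, and no other agent. The other 4 arrays held the same kind of macrophages after 0.5, 2, 7 or 21 h with 10 µg per ml of LPS from Salmonella minnesota, and were used only to see whether a ratio at 0 h came back. Channel 2 of all 5 arrays carried embryo RNA, so the arrays share their reference. Strain, cell type and culture differ together between the 2 channels and cannot be told apart.

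Bone marrow-derived macrophages are phagocytes. They engulf particles and dying cells, break them down in acid lysosomes, and carry receptors for antibodies, complement and microbial products. An embryo late in gestation is a mixture of every organ: skeletal muscle and heart, cartilage and bone, skin, brain, gut, lung, and a liver that both secretes plasma proteins and makes red blood cells. It also contains macrophages and other leukocytes of its own. A ratio on this array therefore sets a cultured cell type against an average over tissues. A gene that both sides express alike lies near 0, and so may a gene that neither side expresses. Without intensities these cases cannot be told apart. In such bulk RNA, fewer cells of a type and less RNA per cell cannot be told apart.

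Ratios are given on the log2 scale, macrophage over embryo, with the array median at 0. A value of 1 is 2-fold higher in macrophages and -1 is 2-fold lower. The deposited values were read as log10 from their size, and the direction is likely rather than stated: it rests on the order of the channels in the labels and on the lists of macrophage and embryo tissue genes below, whose sign is thus no finding. If the deposited values were log2, every log2 ratio here would be 3.32 times too large. There is 1 array and no biological replicate, so no test was possible and no p-value is given. The one spread at hand is that over the probes (cDNA clones) of a gene, with an SD of 0.718 pooled over the 3213 genes with 2 or more probes. This spread is technical. The other 5740 genes rest on 1 probe.

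On the 0 h array the macrophage side held 526 genes at a ratio of 2-fold or more, 5.88% of those measured, and the embryo side 619, or 6.91%. Larger ratios lay more on the embryo side. At 4-fold there were 96 higher and 147 lower genes, at 8-fold 21 and 50, and at 16-fold 8 and 20. Higher genes made up 45.9% of all genes past 2-fold, but 59.1% if the array was left uncentred (693 higher and 480 lower), a shift of 0.137 log2 units. Gene ratios ran from -5.99 to 6.20, with a median of -0.03.

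**Figure D1:**
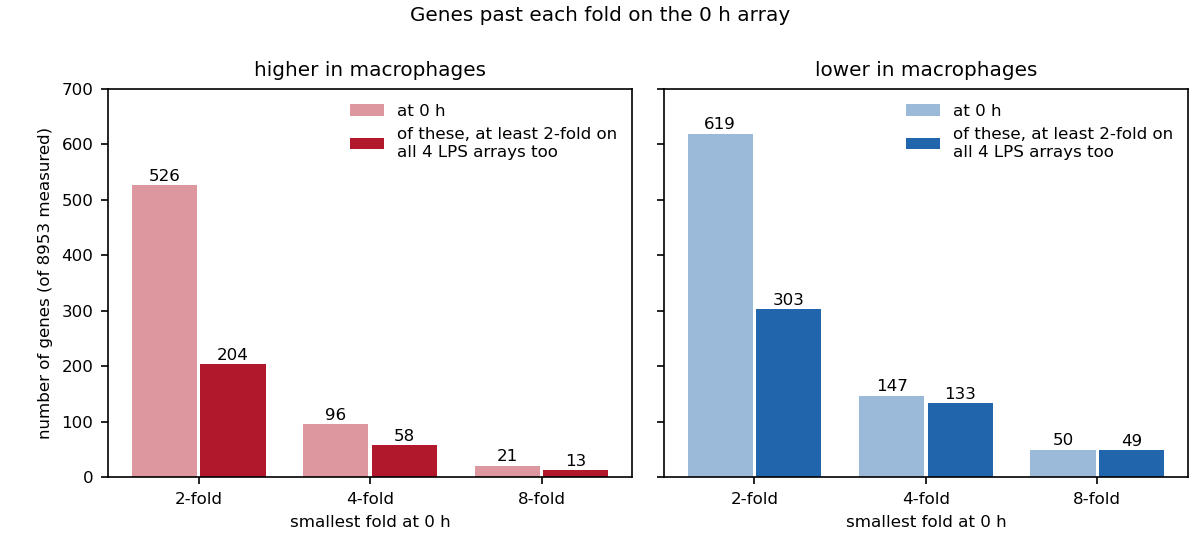
Number of genes (y axis) at least 2-fold, 4-fold or 8-fold higher (left panel) or lower (right panel) in macrophages than in embryo at 0 h, and how many of them were also at least 2-fold in that direction on all 4 LPS arrays. Of the 8-fold genes 49 of 50 lower ones and 13 of 21 higher ones came back on all 4 arrays, against 303 of 619 and 204 of 526 at 2-fold.

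A ratio was said to repeat where it was at least 2-fold in the same direction on all 4 LPS arrays. This held for 204 of the 526 higher genes (38.8%) and for 303 of the 619 lower genes (48.9%), which is 2.28% and 3.38% of all genes measured. Of the 4-fold genes, 58 of 96 higher and 133 of 147 lower repeated. The share that repeated was thus larger among the embryo-side genes at each fold. In contrast, 29 higher and 80 lower genes were not 2-fold in that direction on any LPS array. Since LPS itself acts on macrophages, a ratio that did not repeat can be a change under LPS or a fault of a spot. It can also be a ratio near the 2-fold mark that fell short of it on an LPS array. These cannot be told apart with 1 array per time.

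The 12 highest repeating genes were led by proteins of phagocytosis and lysosomal digestion. Apart from Lyz2 and B2m, each of them was read by a single probe, so no second clone speaks to its value. Ctss encodes cathepsin S, a lysosomal protease that trims the class II invariant chain, and its log2 ratio was 6.20, or 73.6-fold. Its value was 7.93, 7.82, 6.83 and 7.19 on the arrays at 0.5, 2, 7 and 21 h of LPS, so all 5 arrays put it far on the macrophage side. Fcgr1, the high-affinity receptor for IgG, had 4.45 at 0 h (21.8-fold) and 11.27, 11.30, 5.97 and 5.72 on the LPS arrays. On the arrays at 0.5 and 2 h, stretches of neighbouring probe numbers ran high, and its probe lies in one. Lyz2, the macrophage lysozyme that cleaves bacterial cell walls, had 4.15 over 3 probes that read 3.26, 3.99 and 5.21. It read 3.79, 3.93 and 4.02 at 2, 7 and 21 h of LPS and varied least over the 5 arrays among these 12 genes. A probe for Lyz2 may also bind its near-identical copy Lyz1.

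Lilrb4a, an inhibitory receptor of myeloid cells, stood at 4.14, and at 4.15, 4.36, 3.96 and 3.50 under LPS. The immune transcript AW112010 stood at 4.30 and the stress-response transcription factor Atf3 at 3.35. Lcp1, the leukocyte actin-bundling protein plastin, had 3.20, and Lgals3bp, a secreted galectin-binding glycoprotein, 3.10. B2m, the light chain of class I molecules, also had 3.10, with probes at 2.13, 3.49 and 3.69. The remaining members were Ctsll3 (3.34), a cathepsin L-like gene, the unnamed gene 1110015O18Rik (3.19) and the nuclear noncoding RNA Neat1 (3.08). Neat1 was lowest at 7 h of LPS, with 1.23.

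The 12 lowest repeating genes were red cell, liver and matrix genes, next to several without a tissue of their own. Alb, the plasma protein albumin made by liver, had -5.50 over 6 probes between -6.99 and -4.44, and -5.76, -5.67, -5.15 and -5.18 on the LPS arrays. Hbb-b1, the adult beta globin, had -5.49 over 21 probes between -7.41 and -3.57. The alpha globin Hba-a2 had -4.75 over 9 probes. All of these probes lay on the embryo side and none came near 0. The collagen genes Col1a2 (-5.30) and Col1a1 (-4.61) encode the chains of type I collagen of bone, tendon and skin, and Col2a1 (-5.09) encodes the collagen of cartilage. The 2 probes of Col1a2 agreed closely, at -5.35 and -5.25, and those of Col1a1 did not, at -6.05 and -3.18. Gas1, a surface protein that binds Hedgehog ligands, had -4.88.

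The lowest ratio of all measured genes belonged to Rras, a small GTPase related to Ras, at -5.99, or 63.5-fold lower. It read -6.20, -5.85, -6.42 and -5.61 under LPS. Nedd4, a ubiquitin ligase, had -5.33, Ddx21, a nucleolar RNA helicase, -5.29, Pitpnb, a phosphatidylinositol transfer protein, -5.24, and Fbxw11, a subunit of an SCF ubiquitin ligase, -4.67. These genes are widely expressed, and each was read by 1 probe, so no second clone speaks to the value. That their ratio came back on 4 arrays shows that the spot reads alike, since the same clone and the same embryo RNA were used each time.

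**Figure D2:**
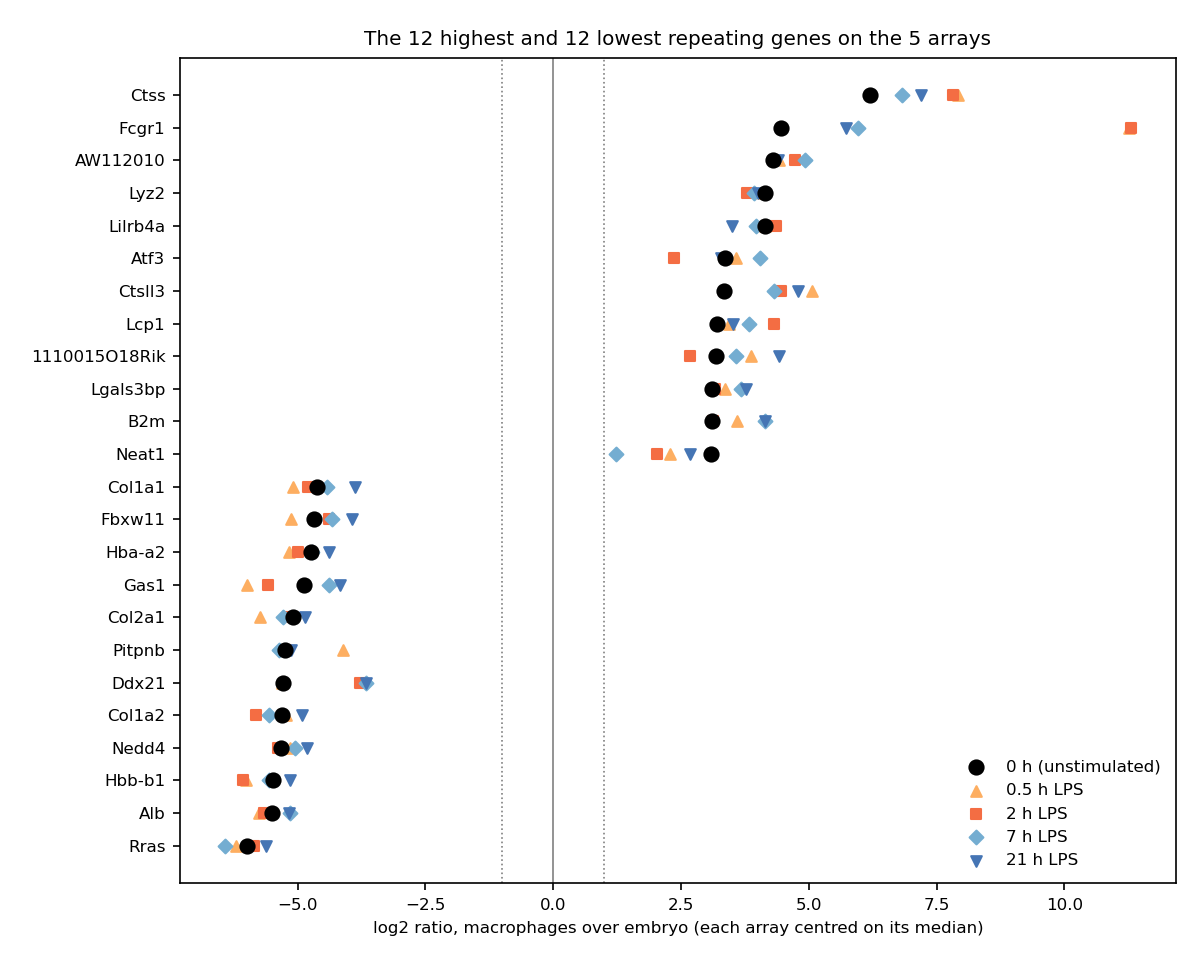
Log2 ratios of macrophages over embryo (x axis) for the 12 highest and 12 lowest repeating genes (y axis) on the 0 h array (black circles) and the 4 LPS arrays (coloured symbols); dotted lines mark 2-fold. The black circles lie between 3.08 and 6.20 and between -5.99 and -4.61, and the LPS arrays put each gene on the same side, with Fcgr1 far to the right at 0.5 and 2 h.

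Genes that identify leukocytes were mostly on the macrophage side, though several defining ones were not. The macrophage identity list had 12 measured members with a median of 1.74, against -0.03 over all genes. By the 2-fold rule 7 of them were higher and 0 were lower, where 5.88% and 6.91% of all genes were. Each count of list members below is to be set beside these shares, and a count near them does not set a list apart. All 7 repeated. Besides Ctss, Fcgr1 and Lyz2 these were Cd53 (2.65), a tetraspanin of leukocytes, Laptm5 (2.58), a lysosomal membrane protein of blood cells, the galectin Lgals3 (1.77) and Fcer1g (1.71), the signalling chain of Fc receptors. The 3 probes of Lgals3 ran from -0.67 to 3.75. The list also held 5 genes inside 2-fold. These were Cd52 (0.53), Aif1 (0.07), Tyrobp (-0.05), Fcgr2b (-0.22) and Cd68 (-0.50), all of them known as macrophage genes. Cd68, the macrophage sialomucin used as a tissue stain, thus read slightly toward the embryo on its single probe, and stood at -0.60, -0.52, -0.04 and -0.05 on the LPS arrays. The receptor genes Csf1r, Adgre1 and Itgam were not measured here.

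Surface and signalling genes shared by most leukocytes followed. Of 12 pan-leukocyte genes, whose median was 1.33, 7 were higher and 0 lower, and 4 of the 7 repeated. Cd48 (2.31), a ligand of natural killer cell receptors, and Arhgdib (1.90), a regulator of the cytoskeleton in blood cells, came after Lilrb4a, Lcp1 and Cd53. Among 13 kinases, phosphatases and adaptors of haematopoietic cells 6 were higher and 0 lower (median 0.78). Of the 6, 3 repeated. Vav1, an exchange factor for Rac, had 2.58 and came back at 3.27, 3.02, 3.17 and 2.85. Skap2 (2.38) is an adaptor of integrin signalling, Syk (2.06) the kinase that reads Fc receptors, Ptpn6 (2.04) the phosphatase SHP-1, and Dock2 (1.66) a Rac activator for migration. The kinase Btk (-0.19) and the phosphatase Inpp5d (-0.17), which blood cells also use, lay near 0, and the 13 genes had 1 probe each.

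Lysosomal genes formed the broadest group on the macrophage side. Of 15 proteases and their inhibitors 6 were higher and 1 lower (median 0.95), of 22 hydrolases of sugars and lipids 9 and 0 (median 0.80), and of 24 membrane and proton pump genes 8 and 0 (median 0.65). In the hydrolase list 20 of 22 genes lay above 0. Of the higher genes 5 of 6 proteases, 8 of 9 hydrolases and 6 of 8 membrane and pump genes repeated. Next to Ctss stood Ctsc (2.73), which activates granule proteases, and Ctsl (2.40), which digests endocytosed protein. The inhibitor cystatin C, Cst3, had 1.87 over 6 probes between 0.74 and 2.45. In the other direction, Cstb, the cytosolic inhibitor of cathepsins, had -2.98, and -2.67, -2.08, -2.55 and -2.44 under LPS. Ctsk, the collagen-digesting cathepsin of osteoclasts, had -0.76, so the cathepsins did not lie on 1 side.

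Among hydrolases, Arsb (2.71) and Gusb (2.22) degrade glycosaminoglycans and Hexa (2.70) gangliosides. The 2 probes of Hexa read 2.50 and 2.90, and the 3 of Gusb between 1.98 and 2.64. Npc2, which hands cholesterol out of the lysosome, had 1.96, and Cln3, a lysosomal membrane protein lost in juvenile Batten disease, 1.49. Idua (-0.85) and Acp5 (-0.92), the tartrate-resistant acid phosphatase of osteoclasts, stood at the low end. On the membrane, Scarb2, the receptor that carries glucocerebrosidase, had 1.73 and Lamp2 1.37. Subunits of the proton pump that acidifies lysosomes were split, with Atp6v0e at 1.40 and Atp6v1c1 at 1.17, but Atp6v0a1 at -0.56 and Atp6v1f at -0.85. The tetraspanin Cd63, an abundant lysosomal protein, had -0.09, with 3 probes between -0.10 and -0.08.

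Many lysosomal promoters carry a palindromic element read by the factor TFEB, and 2 promoters of the group that hold its core, CACGTGAC, are shown. The sequences are from RefSeq, build GRCm38.p6, 150 bases upstream of the start, 5′ to 3′ along the gene, with the core on either strand in capitals. Ctsa (log2 ratio 1.28), a lysosomal carboxypeptidase, lies on the plus strand at chr2:164833623-164833772, and Cln3 on the minus strand at chr7:126583237-126583386.
Ctsa: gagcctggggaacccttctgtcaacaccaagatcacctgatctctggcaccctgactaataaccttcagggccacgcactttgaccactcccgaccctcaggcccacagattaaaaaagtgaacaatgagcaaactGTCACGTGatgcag
Cln3: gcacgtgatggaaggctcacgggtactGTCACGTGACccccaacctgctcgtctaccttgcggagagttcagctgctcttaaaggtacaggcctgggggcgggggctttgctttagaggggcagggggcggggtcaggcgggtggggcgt
In the 250 bases before the start, searched on both strands, the core was found in 4 of 20 hydrolase genes with a promoter entry (20.0%), 4 of 20 membrane and pump genes, and 1 of 11 proteases. It was found in 2.11% of the 27025 promoters of the table and in 3.41% of those of measured genes. Among genes higher on all 5 arrays it was found in 1 of 163 (0.613%), and among those lower in 4 of 226 (1.77%). It contains the general E-box CANNTG, present in 69.3% of all promoters. The 4 hydrolase genes were Cln3, past 2-fold, and Arsa (0.43), Naglu (0.30) and Sgsh (0.25), which were not. The full palindrome was found in 1 of 20 hydrolase genes, Cln3, in 0 of 11 proteases and in 0 of 20 membrane and pump genes. It was held by 0.27% of all promoters.

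Class I antigen presentation and interferon-response genes were on the macrophage side before any LPS was added. Of 13 class I genes 8 were higher and 0 lower (median 1.49), all 13 lay above 0 and the 8 repeated. After B2m came the heavy chains H2-D1 (2.93) and H2-Q10 (2.64), whose probes can bind other class I genes and which differ in haplotype between the strains. The immunoproteasome subunits Psmb9 (2.01), Psmb8 (1.67) and Psmb10 (1.48), which cut peptides for presentation, stood above 0 together with the activator subunit Psme2 (1.49) and the peptide-loading chaperone Tapbp (1.68). The 7 probes of Psmb8 ran from 0.65 to 2.68. The constitutive subunit Psmb6, which Psmb9 replaces, had -0.92, and the 32 proteasome genes together had a median of 0.14. The chaperones Calr (0.23) and Canx (0.31), used by all secretory cells, were near 0. In contrast, 0 of 7 class II genes were higher or lower, with Cd74, the invariant chain, highest at 0.81 and H2-Eb1 at 0.02.

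The interferon response stood out by number, as 24 of 25 measured genes lay above 0 around a median of 1.47. The 2-fold mark was passed by 15 upward and by 0 downward, and 14 of the 15 repeated. The highest were Lgals3bp, Ifi205 (3.03) and Ifi204 (2.71) of the DNA-sensing p200 family, Oasl2 (2.73), an oligoadenylate synthetase-like protein, and the transcription factor Irf5 (2.59). Ifi204 read 3.57, 4.87, 6.15 and 5.31 on the LPS arrays. Irf7, the factor that amplifies the interferon response and named here after its value was seen, had 2.32, with both probes alike at 2.28 and 2.35. Near 0 lay Irf1 (0.21), Isg20 (0.12) and Irf9 (0.10), and Oasl1 had -0.66. The list median was 1.81, 2.20, 2.68 and 2.30 on the LPS arrays, above its 0 h value each time. The median without runs of probes that ran high at 0.5 or 2 h was 1.41 for the interferon genes, but 0.74 for the class I genes.

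Interferon-response genes share an element whose core is a pair of GAAA blocks with any 2 bases between them, and the promoters of 4 of them are shown for it, again from RefSeq GRCm38.p6, 150 bases up to the start, 5′ to 3′ along the gene. They were chosen after their ratios were seen, and capitals mark the core on either strand. Rsad2 (log2 ratio 2.25), the antiviral enzyme viperin, lies on the minus strand at chr12:26456453-26456602. Ifit1 (1.75), which binds viral RNA caps, lies on the plus strand at chr19:34640739-34640888. Gbp2 (2.35), a guanylate-binding protein, lies on the plus strand at chr3:142620513-142620662, and Ifi205 on the minus strand at chr1:174031756-174031905.
Rsad2: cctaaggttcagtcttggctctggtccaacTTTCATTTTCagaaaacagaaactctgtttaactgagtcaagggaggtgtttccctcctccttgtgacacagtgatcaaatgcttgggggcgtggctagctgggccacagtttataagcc
Ifit1: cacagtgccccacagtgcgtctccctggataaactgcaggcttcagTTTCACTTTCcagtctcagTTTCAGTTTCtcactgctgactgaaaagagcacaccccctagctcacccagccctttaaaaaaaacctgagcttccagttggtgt
Gbp2: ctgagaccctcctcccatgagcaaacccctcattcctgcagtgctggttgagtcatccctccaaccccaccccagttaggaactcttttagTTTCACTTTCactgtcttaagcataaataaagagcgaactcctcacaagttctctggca
Ifi205: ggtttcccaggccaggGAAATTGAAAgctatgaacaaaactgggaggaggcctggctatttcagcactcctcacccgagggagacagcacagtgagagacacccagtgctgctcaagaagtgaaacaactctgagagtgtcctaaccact
The core was present in 8 of the 21 interferon genes with an entry (38.1%) and in 3.46% of all 27025 promoters. The 8 were these 4 and Ifit3, Igtp, Oas1a and Stat2, of which Stat2, at 0.28, was the one inside 2-fold. Among all genes higher on the 5 arrays it was present in 14 of 163 (8.59%), and among those lower in 8 of 226 (3.54%).

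The short element AGGAAGT, which ETS factors such as the macrophage regulator PU.1 can bind, was present in 25 of 163 promoters of genes higher on all 5 arrays (15.3%), 14 of 226 of genes lower on all 5 (6.19%) and 8.80% of all promoters. Another ETS-type pattern, GGAAGTGA, was present in 3.07% of the genes higher on all 5 arrays, 2.65% of those lower and 3.03% of all promoters, and so was not set apart. An example of the first element is Lyz2, on the minus strand at chr10:117282273-117282422 in RefSeq GRCm38.p6, with the element, here on the opposite strand, in capitals.
Lyz2: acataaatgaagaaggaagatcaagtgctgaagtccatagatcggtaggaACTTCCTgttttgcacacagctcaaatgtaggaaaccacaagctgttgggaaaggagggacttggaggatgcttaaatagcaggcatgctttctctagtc
The 25 genes include Fcgr1, Vav1, Ptpn6, Ctsc, Ccl6, Pf4, Arhgdib and Cd5 besides Lyz2. In all, 12 patterns were searched, and a match is a description of letters, not evidence of binding. A C-rich pattern, held by 3.68% of all promoters, was found in 0 of the 17 haemoglobin and erythroid genes with a promoter entry, of 27 measured. Hbb-b1 had no entry, so its promoter was not searched. An AT-rich pattern held by 0.167% of all promoters was found in 0 of the 40 muscle genes with an entry, as was another held by 0.537%. With so few promoters holding them, these 0 counts decide little. The E-box CANNTG was found in 35 of 40 muscle genes (87.5%), against 69.3% of all promoters. It was also found in 10 of 10 macrophage identity genes and 9 of 11 lysosomal proteases (81.8%), but in 6 of 12 class I genes (50%). The E-box thus does not set the muscle genes apart.

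Among secreted mediators of inflammation, the cytokines were, by contrast, not set apart at rest. Of 8 inflammatory cytokine genes 0 were higher or lower, with a median of -0.06. Il1a, which encodes interleukin 1 alpha, had 0.11 at 0 h and 0.97, 3.71, 5.31 and 5.53 on the LPS arrays. Il1rn, the interleukin 1 receptor antagonist, had -0.07 and reached 2.93 at 7 h. Of 15 chemokines 3 were higher (20.0%, against 5.88% of all genes) and 1 lower (6.67%, against 6.91%), with a median of -0.14. The higher ones were Ccl9 (1.86), Ccl6 (1.79) and Pf4 (1.27), which all repeated, and the lower one was Cxcl12 (-1.30), a chemokine of stromal cells. The 7 probes of Ccl6 ran from 0.61 to 3.36. Cxcl10, a target of interferon, had 0.38 at rest.

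Genes of microbial recognition and killing varied. Of 13 endotoxin receptor and signalling genes 2 were higher and 0 lower (median 0.33, or -0.44 without the high runs), and 1 of the 2 repeated. Nfkbie (2.20) encodes an inhibitor of NF-kappaB and Map3k8 (1.05) a kinase downstream of Toll-like receptors, and Tlr2, a receptor for bacterial lipoproteins, had 0.96. Of 7 antimicrobial genes 4 were higher and 0 lower, namely Lyz2, the oxidase subunits Ncf4 (1.32) and Cyba, just past 2-fold, and the granule protein Ngp (1.14). Of these 4 genes 1 repeated. Of 6 cytokine and chemokine receptors 1 was higher, the TNF receptor Tnfrsf1a at 1.22. Of 8 complement and coagulation genes 3 were higher and 0 lower, and 2 of the 3 repeated. Properdin, Cfp, which stabilises the complement convertase, had 2.85 and came back at 2.23, 2.50, 2.65 and 3.47. C1qa, a chain of C1q, had 1.74 and Plaur, the urokinase receptor, 1.43. Fibronectin, Fn1, had -0.94.

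Lipid and iron handling divided by gene. Of 21 lipid genes 7 were higher and 3 lower (median 0.14), and 3 of the 7 and 1 of the 3 repeated. Cd36, the scavenger receptor for oxidised lipoproteins, had 2.32 over 7 probes, of which the highest read 2.73 (SD 0.32), the tightest agreement among the 6 highest genes with 4 or more probes after Sppl2a. Plin2 (2.60), the coat protein of lipid droplets, and Lpl (1.67), lipoprotein lipase, were also higher. Toward the embryo lay the fatty acid-binding proteins Fabp4 (-1.57) and Fabp5 (-1.51) and the apolipoprotein Apoc2 (-1.27), whose 2 probes disagreed (-2.96 and 0.42). Apoe, which macrophages and liver both make, had -0.64. Of 11 iron genes 5 were higher and 1 lower (median 0.78), and 3 of the 5 repeated, but not the lower one. Hmox1, which opens haem, had 2.08, the ferritin chains Ftl1 2.03 over 6 probes and Fth1 1.07 over 4, and the reductase Steap3 1.29. The exporter Slc40a1 had -1.02, with probes at -2.04 and at 0.

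Of 24 annexins, S100 proteins and galectins 9 were higher and 0 lower (median 0.63, but -0.06 without the high runs), and 4 of the 9 repeated. Lgals9 (1.82) had agreeing probes (1.71 and 1.94). Anxa1 (1.65), a mediator that resolves inflammation, had 4 probes from -0.36 to 2.63, and S100a4 (1.39) had 2 that disagreed (-0.61 and 3.39), the lower of which lies outside those runs. Of 37 actin genes 12 were higher and 0 lower (median 0.66), and 9 of the 12 repeated. Lcp1 led, followed by Arhgdib (1.90), the coactosin Cotl1 (1.58), the Arp2/3 subunit Arpc1b (1.49), which nucleates branched actin in blood cells, and Coro1a (1.46). Cytoplasmic actin, Actb, often taken as a constant gene, had 1.44 over 3 probes between 1.20 and 1.58 and came back at 1.64, 1.32, 1.91 and 1.65. Fscn1 (-0.98), a bundler of filopodia, and Tmsb10 (-0.49 over 8 probes) lay on the other side.

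Transcription factors that define the lineage hardly stood out. Of 15 myeloid factors 2 were higher and 0 lower, with a median of -0.04. These were Irf5 and Nfe2l2 (1.74), the regulator of the antioxidant response, whose 2 probes read 1.47 and 2.00. Runx1 (-0.56), Cebpa (-0.41) and Ets2 (-0.33 over 4 probes), regulators of blood and other lineages, lay below 0, and Pparg had 0.80.

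**Figure D3:**
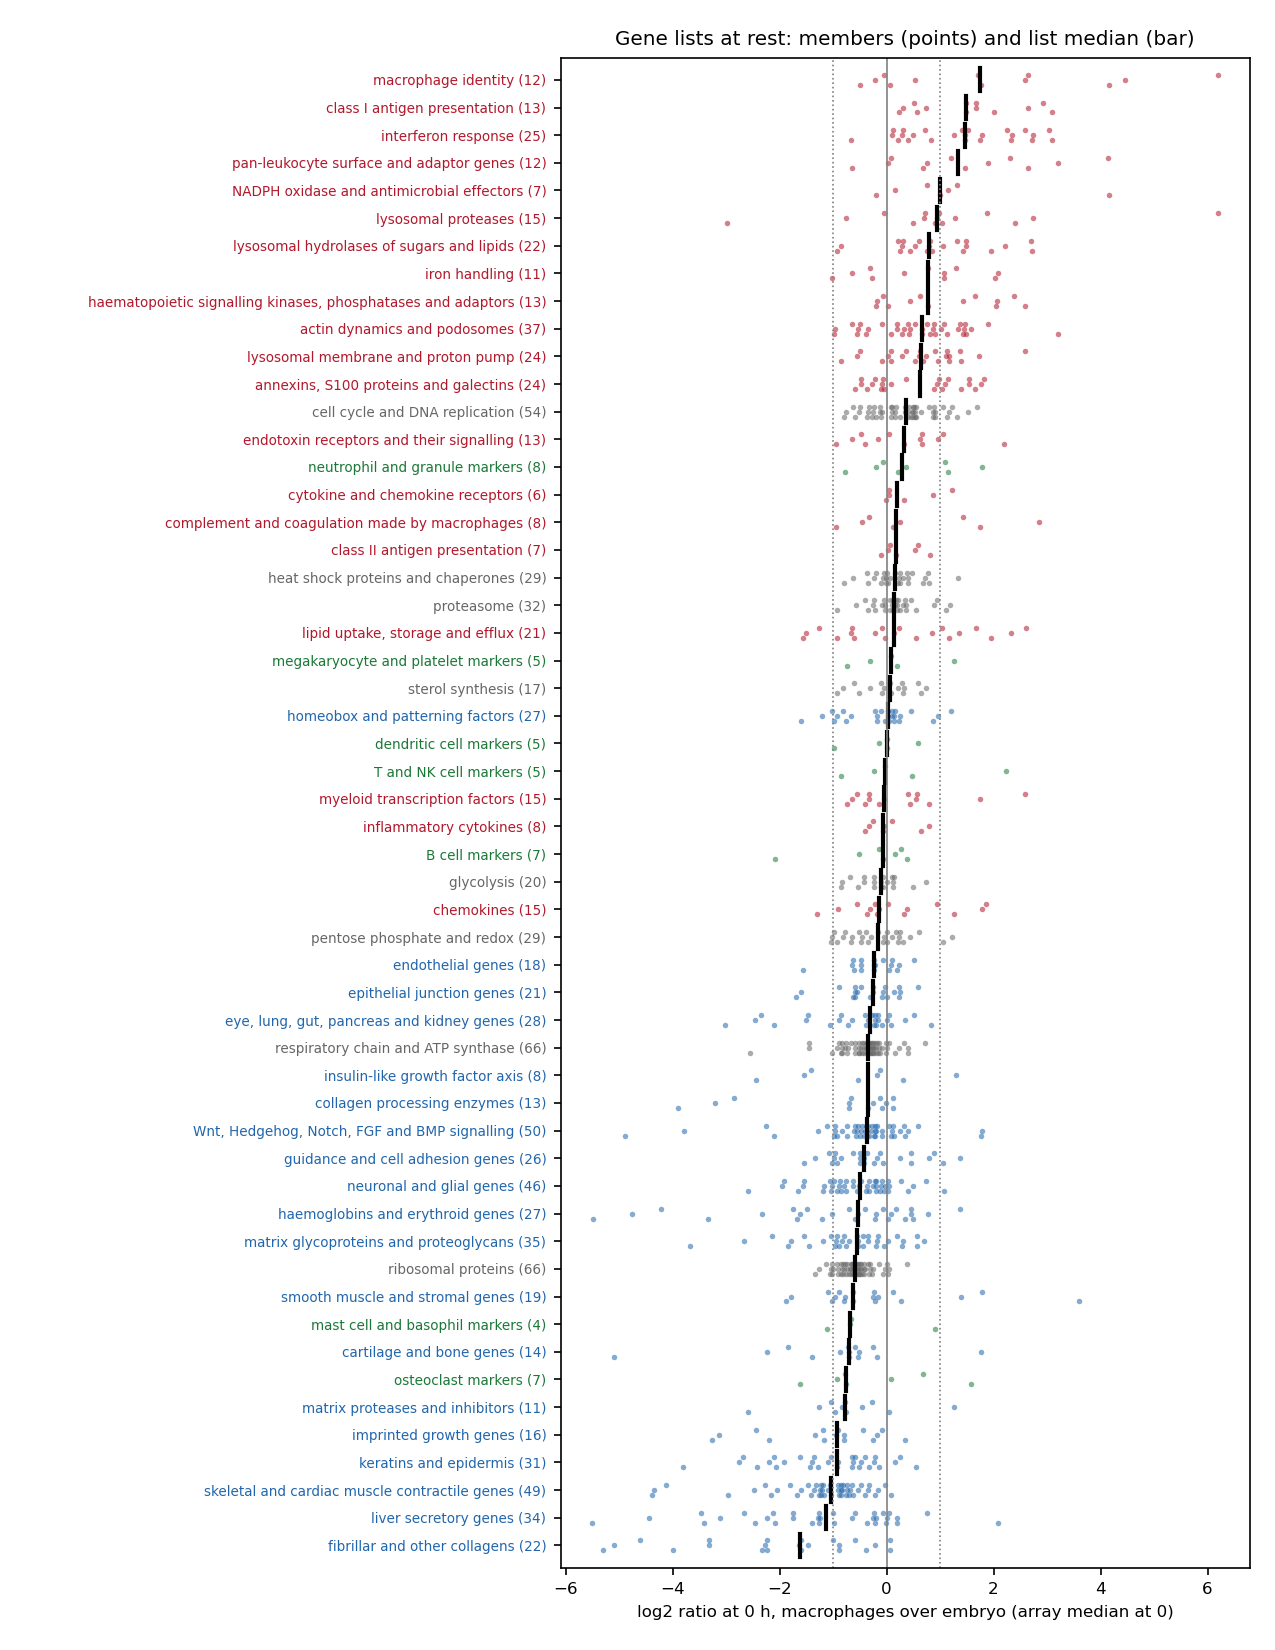
Log2 ratio at 0 h (x axis) of every measured member (points) of each of the 54 gene lists (y axis, number of members in brackets) with the list median (black bar); red marks lists of macrophage functions, grey household functions, blue embryo tissues, green other blood cells; dotted lines mark 2-fold. Medians run from -1.62 for collagens to 1.74 for macrophage identity, and the embryo lists have long tails to the left of their medians.

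Red cell and liver genes included some of the lowest ratios on the array. The median of 27 haemoglobin and erythroid genes was -0.53, with 11 lower and 1 higher, so a few genes were extreme and many were not. After Hbb-b1 and Hba-a2 came Hba-a1 (-4.22, 14 probes from -7.64 to -2.42), whose probes cannot be told from those of Hba-a2 by symbol alone, then Car1 (-3.33), the carbonic anhydrase of red cells, and Alas2 (-2.32), the first enzyme of haem synthesis. Car1 read -4.08, -4.68, -4.65 and -4.42 under LPS. The embryonic globin Hbb-bh1 had -1.74. The band 3 anion exchanger Slc4a1 (0.46) and the erythroid factor Nfe2 (0.17) did not lie on the embryo side, and Epor, the erythropoietin receptor, had 1.38.

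Of 34 liver genes 18 were lower and 1 higher (median -1.13), and 15 of the 18 repeated. After Alb came Afp (-4.44), its fetal counterpart, with probes at -5.45 and -3.43, the protease inhibitor Serpina1d (-3.46), one of several near-identical copies, the fibrinogen chain Fga (-3.42) and Itih3 (-3.12). Afp came back at -4.41, -4.19, -4.12 and -4.44, almost its value at 0 h. In the 15 liver genes with 2 or more probes the median was -2.12. Several metabolic enzymes of liver were not separated, as with Ass1 (0.76), Hpd (0.19) and Arg1 (0.04). The higher gene was Cyp2e1, a cytochrome P450 of liver, at 2.09 on 1 probe. It read 4.60, 5.98, -0.54 and 1.17 on the LPS arrays, and so did not repeat.

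The hepatocyte factor HNF1 reads the left arm GTTAATNAT of a palindrome, and 3 liver promoters with it are shown, from RefSeq GRCm38.p6 with the arm in capitals. In Alb and Afp it reads along the gene, and in Fga it lies on the opposite strand, so that the capitals there show its reverse complement. All 3 genes are on the plus strand, Alb at chr5:90460720-90460869, Afp at chr5:90490564-90490713 and Fga at chr3:83026003-83026152.
Alb: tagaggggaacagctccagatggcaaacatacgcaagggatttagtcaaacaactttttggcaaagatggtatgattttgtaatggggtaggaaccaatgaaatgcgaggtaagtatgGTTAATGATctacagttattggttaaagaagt
Afp: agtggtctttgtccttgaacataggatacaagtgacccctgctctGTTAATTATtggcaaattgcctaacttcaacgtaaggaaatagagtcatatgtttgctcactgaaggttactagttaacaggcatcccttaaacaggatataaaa
Fga: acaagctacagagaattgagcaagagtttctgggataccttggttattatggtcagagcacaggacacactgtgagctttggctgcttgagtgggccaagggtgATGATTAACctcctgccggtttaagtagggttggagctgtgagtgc
These 3 were all of the 29 liver genes with an entry that held the letters in 250 bases (10.3%), against 0.866% of all 27025 promoters, and they are among the 5 lowest genes of the list.

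Genes of the extracellular matrix formed the list with the lowest median. Of 22 collagens 14 were lower and 0 higher (median -1.62), and all 14 repeated. Type I and II collagen chains were followed by Col5a1 (-4.00), of mixed fibrils, with probes at -5.36 and -2.64. Col6a1 (-3.32) and Col6a2 (-3.32), chains that assemble into the same collagen VI molecule, had nearly equal ratios. They read -3.62, -3.82, -3.36 and -3.13, and -3.89, -3.03, -3.50 and -4.21, under LPS. Col15a1 (0.06) and Col18a1 (0.07), a pair of related collagens found next to basement membranes, lay near 0, and Col3a1 had -0.89 over 3 probes from -1.55 to -0.15. Of 13 collagen-processing genes 3 were lower, namely Sparc (-3.90), a collagen-binding matrix protein, the cross-linking oxidase Lox (-3.20) and the chaperone Serpinh1 (-2.85). General enzymes of the secretory pathway such as P4hb (-0.13) and Ppib (-0.35) were near 0.

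Of 35 matrix glycoproteins and proteoglycans 9 were lower and 0 higher (median -0.56). The lowest were Postn (-3.67), periostin of connective tissue, Nid1 (-2.67), which links laminin to collagen IV, the small proteoglycan Lum (-2.15), the cartilage link protein Hapln1 (-1.84) and the laminin chain Lamb1 (-1.79). Of 11 matrix proteases and inhibitors 3 were lower and 1 higher, with Serpinf1 at -2.59 and Mmp2, a gelatinase of fibroblasts, at -1.27, and Adam9 at 1.27. Of 14 cartilage and bone genes 4 were lower (median -0.70), among them Col11a1 (-2.23) and Ibsp (-1.40), the bone sialoprotein. Ihh, the Hedgehog ligand of growth plate cartilage, was higher instead, at 1.77 on 1 probe, and 3.04, 2.87, 2.54 and 2.84 under LPS.

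Of 49 skeletal and cardiac muscle genes 25 were at least 2-fold lower, 24 lay inside 2-fold and 0 were higher (median -1.04). Below 0 lay 48 of them, and 12 of the 25 repeated. Mybpc1 (-4.39), the slow myosin-binding protein C, Ckm (-4.34), muscle creatine kinase, Myl1 (-4.13) and Mylpf (-2.97), myosin light chains of fast fibres, and Pdlim3 (-2.47) were lowest. The 4 probes of Myl1 read -4.92, -4.30, -4.02 and -3.29. Ckm had -4.45, -4.31, -4.98 and -5.51 on the LPS arrays. The oxygen carrier Mb (-0.32) and the myogenic factor Myod1 (-0.16) were among those inside 2-fold. Tnni3 (0.09), the cardiac troponin I, was the gene above 0. Of 19 smooth muscle and stromal genes 4 were lower and 3 higher. Cnn3 (-1.87) and Cnn2 (-1.78), calponins, lay on the embryo side. The 3 higher genes were Vim (1.79), the intermediate filament that macrophages also carry, S100a4 and Myh11. Myh11, a smooth muscle myosin, had 3.60 at 0 h, but 3.65, 6.17, 0.28 and 1.78 under LPS on its single probe.

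Skin and gland genes followed the same side. Of 31 keratin and epidermis genes 15 were lower and 0 higher (median -0.93), and 12 repeated. Krt1 (-3.81), of the cornifying layer, Krt15 (-2.76) and Krt14 (-2.11), of the basal layer, Krtdap (-2.68), and Krt13 (-2.42 over 7 probes) of mucosal epithelium were among the lowest. Krt18 (-0.21), of simple epithelia, and Lor (-0.24, 4 probes from -1.76 to 1.76) were not 2-fold lower. Of 28 genes of eye, lung, gut, pancreas and kidney 7 were lower and 0 higher (median -0.31). The pancreatic enzymes Amy2 (-3.02) and Ctrb1 (-2.45 over 12 probes), the intestinal Fabp2 (-2.35) and the lung surfactant gene Sftpc (-2.11) were lowest. The islet hormones Gcg (0.04) and Sst (0.09) lay near 0. Ins2, another, had 0.34 over probes that disagreed, at -0.30, -0.03 and 1.36. Of 21 epithelial junction genes 2 were lower (9.52%, against 6.91% of all genes), Cdh1 (-1.70), or E-cadherin, and Tjp1 (-1.59). Endothelial genes were little separated, with 1 of 18 lower (5.56%), Cd34 at -1.57, and Pecam1, which macrophages also carry, at -0.48.

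Among 46 neuronal and glial genes 11 were lower and 1 higher (median -0.50). Ptn, the growth factor pleiotrophin, had -2.59 over 8 probes between -4.15 and -0.81. Dpysl3 (-1.95), Gpm6a (-1.92), Uchl1 (-1.66) and Stmn3 (-1.57) are genes of growing neurons. Uchl1 reached -2.88, -3.86, -3.18 and -1.89 on the LPS arrays. The synaptic genes Syp (0.03) and Vamp2 (0.40) and the proneural factor Neurog2 (0.49) lay near 0. The higher gene was the neurofilament-related Prph at 1.07.

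Signals and factors that pattern the embryo lay closer to 0 than the genes of most tissues. Of 50 genes of Wnt, Hedgehog, Notch, FGF and BMP signalling 6 were lower and 2 higher (median -0.36). After Gas1 came Fstl1 (-3.78), a secreted antagonist, Sfrp2 (-2.26), which binds Wnt ligands, the Wnt receptor Fzd9 (-2.10) and the Notch target Heyl (-1.28), and Bmp2 had 1.78. Of 27 homeobox and patterning factors 3 were lower (11.1%) and 1 higher (3.7%). Their median was 0.02, close to that of all genes (-0.06 when centred within runs of probes). Of 26 guidance and adhesion genes 4 were lower (15.4%) and 2 higher (7.69%). They were led by Plxnc1 (-1.54) and Robo2 (-1.33) below and Ntn4 (1.38) and Nrp2 (1.05) above.

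Of 16 imprinted growth genes 7 were lower, 9 lay inside 2-fold and 0 were higher, with a median of -0.92. Below 0 lay 15 of them, and 6 of the 7 repeated. Mest had -3.26 over 4 probes at -5.02, -3.36, -2.58 and -2.06, and came back at -3.68, -3.28, -3.42 and -3.07. The noncoding RNA Meg3 had -3.14, the growth factor Igf2 -2.44, the zinc finger factor Plagl1 -2.19 and the adaptor Grb10 -1.33. Plagl1 read -2.04, -2.28 and -2.22 at 2, 7 and 21 h of LPS on its single probe. Cdkn1c, an inhibitor of the cell cycle, had -0.25 over 3 probes. Of 8 genes of the insulin-like growth factor axis 3 were lower and 1 higher. Igfbp5 (-1.54) and Igfbp3 (-1.42), which bind the growth factors, were lower along with Igf2, Igfbp4 (1.29) was higher, and Igf1, which macrophages also make, had 0.31.

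Household genes were shifted by small amounts. Of 66 ribosomal protein genes 63 lay below 0, with a median of -0.59, yet 7 were 2-fold lower and 0 higher. Rps19 (-1.33) and Rpl10 (-1.26) were lowest and Rpl10a (0.39) highest. The list median on the LPS arrays was -0.54, -0.70, -0.53 and -0.79, and it was -0.45 without centring. Of 66 respiratory chain and ATP synthase genes 59 lay below 0 (median -0.35), with 4 lower (6.06%, against 6.91% of all genes) and 0 higher. Atp5b had -0.93 over 13 probes (SD 0.31), and the lowest, Atp5c1 (-2.55), had 2 probes that disagreed (-4.73 and -0.36). Glycolysis genes were centred on 0, with 0 of 20 past 2-fold and Gapdh at 0.10 over 12 probes. Of 29 pentose phosphate and redox genes 2 were higher and 2 lower (6.9% each, near the shares over all genes). The peroxiredoxin Prdx1 had 1.22 over 9 probes.

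Cell cycle and DNA replication genes lay slightly on the side of the cultured macrophages at 0 h. Of 54, 7 were higher and 0 lower (median 0.37), none repeating on all 4 LPS arrays. Cdk6 (1.70), Ccnd1 (1.52), which drives entry into the cycle, Pcna (1.31), the replication clamp, Aurkb (1.22) and Rrm2 (1.17) led the list. Ccnd1 read 1.97 and 0.95 at 0.5 and 2 h, and -0.78 and -0.54 at 7 and 21 h of LPS. The list median was 0.02 without the high runs and -0.03 over the 0, 7 and 21 h arrays, so its direction was not held. Sterol synthesis (0 of 17 past 2-fold) and heat shock genes (1 of 29 higher) were near 0.

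Markers of other blood cells were checked, as bone marrow cultures can hold them. Of 8 neutrophil and granule genes 3 were higher and 0 lower (from -0.78 to 1.78, median 0.29), with Elane at 1.10, S100a9 at 0.37 and S100a8 at -0.06. Of these 3 genes 0 repeated, and the highest, Stfa3, lay between -4.34 and -3.52 on the LPS arrays. Of 5 T and NK genes 1 was higher, Cd5, at 2.23, and Cd3g had -0.86. Of 7 B cell genes 1 was lower, Cd79b, at -2.09, and Ighm had -0.51. Of 5 dendritic cell genes 0 and of 5 megakaryocyte genes 1 (Pf4, which macrophages also make) were higher. Of 7 osteoclast genes, with a median of -0.76, 1 was higher, Nfatc1, at 1.58, and 1 lower, Car2, at -1.62, of which Car2 repeated. Of 4 mast cell genes 1 was lower, Tpsb2, at -1.12. Since the embryo too holds these cells, a ratio near 0 does not show that a marker is absent, and their part in the macrophage values was not tested.

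Probes of 1 gene often disagreed, and the genes with many probes show by how much. Of 133 higher genes with 2 or more probes, 60 had every probe at least 2-fold higher and 16 had a probe below 0. Of 225 lower genes, 71 had every probe at least 2-fold lower and 33 had a probe above 0. Among genes with 4 or more probes the highest were Ctsl (2.40), Cd36 (2.32), Sppl2a (2.29), Ftl1 (2.03), Ly6e (1.92) and Cst3 (1.87). Sppl2a is an intramembrane protease of lysosomes and Ly6e an interferon-induced surface protein. Of the 4 probes of Ctsl, 3 read 2.58, 3.82 and higher still and 1 read -1.01, while those of Sppl2a read 1.99, 2.17, 2.37 and 2.63. The lowest were Alb, Hbb-b1, Hba-a2, Hba-a1, Myl1 and Mest, for which every probe was at least 4-fold lower.

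**Figure D4:**
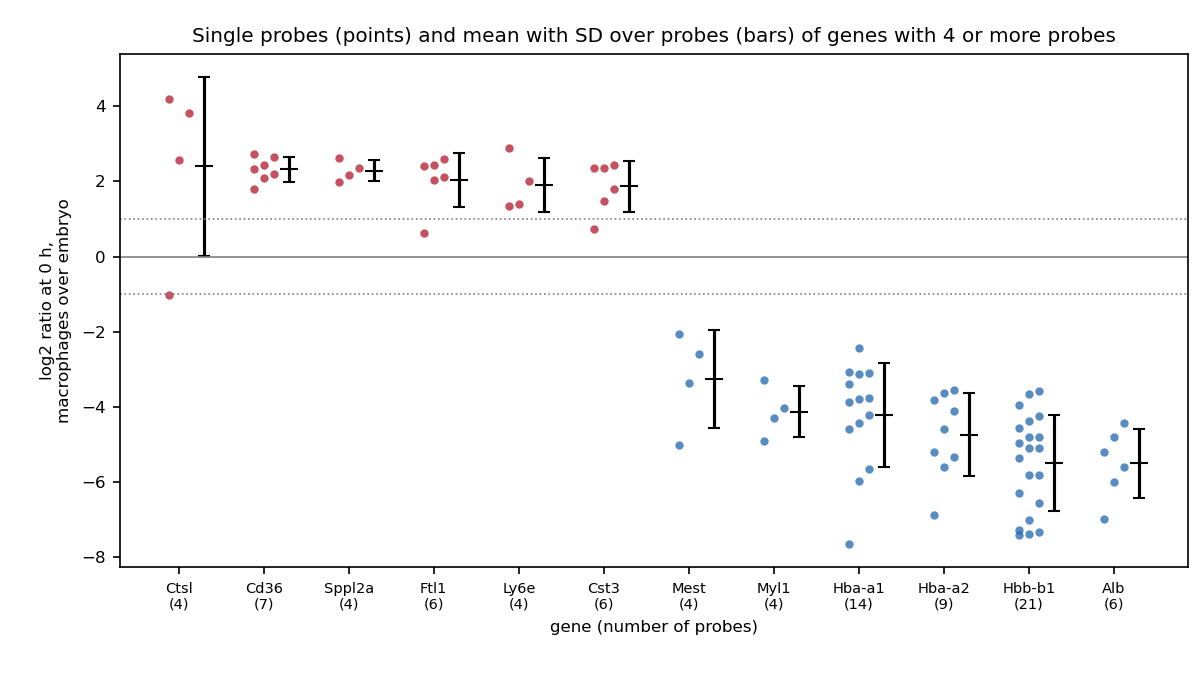
Log2 ratio at 0 h (y axis) of each probe (points) of the 6 highest and 6 lowest genes with 4 or more probes (x axis, number of probes in brackets); the black bar is the gene's mean with the SD over its probes, dotted lines mark 2-fold. Of the higher genes Ctsl has a probe at -1.01, and the 21 probes of Hbb-b1 spread from -7.41 to -3.57.

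Some of the largest ratios at 0 h did not come back. Prl8a1, a prolactin-family gene of placenta, had 5.14, the third highest ratio on the array after Ctss and Map2k6, but -0.35, 0.06, 0.68 and 0.33 on the LPS arrays. Klhdc3 (3.06), Mxi1 (2.86), Spock1 (2.46) and Ankra2 (1.81) were also 2-fold higher on no LPS array. Stfa3 (1.78), a stefin gene, differed from these in reading -4.34, -3.52, -3.60 and -3.63 there, on the embryo side. In Mxi1 and Ankra2 a single probe carried the value, at 6.02 beside -0.31 and at 4.78 beside -0.02 and 0.67. On the lower side, the 6 lowest such genes were Cd79b (-2.09), a chain of the B cell receptor, Fam135a (-1.74), Atg10 (-1.71), Lipk (-1.69), the red cell protein Ank1 (-1.67) and Cidec (-1.63). All of them lie nearer to 0 than the 12 lowest repeating genes, and all but Ank1 rest on 1 probe.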

How the data were processed

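Total RNA of macrophages (channel 1) and whole embryo (channel 2) was compared on 2-colour cDNA arrays, per the labels. The file deposited by the authors gives a log ratio for each probe, read here as log10 from their size. At 0 h they ran from -0.378 (5th percentile) to 0.415 (95th), with a median of 0.0412. The dye of channel 2, the normalization by the authors and the genome build are not given in the sources used here, and no intensities were used, so the level behind a ratio is unknown. Each array was multiplied by 3.32 to log2 and centred on its median. Symbols came from the platform annotation of 2008: 14759 probes had 1 symbol, 170 several and 4899 none, and 14628 were updated by Entrez identifier (GRCm38.p6). Probes were averaged per gene. Values at 0 h existed for 19413 probes, and for 19344 to 19670 on the other arrays.

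Genes named are the 12 highest and 12 lowest that repeat, the 6 highest and 6 lowest that are 2-fold on no LPS array, up to 5 highest and 5 lowest members of each list, all measured macrophage identity genes, and the 6 highest and 6 lowest genes with 4 or more probes. Where others are named, they were chosen after their values were seen, as were the promoters shown and the members listed with them. The 54 lists (1099 measured genes) and the members were chosen with earlier results of these data known. Probe numbers were divided into 207 runs of 96, and 94 runs, holding 45.3% of probes, were left out as an alternative because 10% or more of their probes exceeded the 0 h ratio by 2-fold or more at 0.5 or 2 h. At 0 h the median was 0.162 in these runs and -0.116 elsewhere. Promoters (7217 of 8953 genes matched by symbol) were searched by exact match. Analyses used Python 3.11.15, pandas 2.3.3 and numpy 2.4.6 and were tested on simulated data.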

Additional observations from a re-analysis of the deposited data

Results flagged for a closer look

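Stfa3, a stefin gene of neutrophils and their precursors, was the 1 gene at least 2-fold higher at 0 h and at least 2-fold lower on every LPS array. Its single probe read 1.78 at 0 h and -4.34, -3.52, -3.60 and -3.63 at 0.5, 2, 7 and 21 h. It drew attention since the unstimulated sample lay on one side and all 4 LPS samples on the other. The difference was not tested, each group being 1 array. No gene showed the opposite pattern (0 of 8953).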

How the results depend on the processing

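No paired analysis was possible because each time is 1 array and no replicate is numbered. The count of higher genes (526, or 5.88%) became 11 when values were read as log2. It was 133 with genes of 2 or more probes (4.14% of 3213 genes). It was 244 without the high runs (3.95% of 6185 genes) and 853 over the mean of all 5 arrays. It stayed between 457 and 693 under the 6 other settings. The count of lower genes (619, or 6.91%) became 38 when read as log2 and 225 with 2 or more probes. It stayed between 480 and 623 otherwise. The 225 were 7% of the 3213 genes, so the lower share hardly moved there. Higher genes were 32.8% of those past 2-fold without the runs and 60.9% over 5 arrays. At any fold in the same direction, 403 of the higher and 553 of the lower genes repeated on all 4 LPS arrays. At 2-fold at 7 and 21 h only, 264 and 349 did. In both counts a gene with a missing value was taken as not repeating. Of 364 list medians 354 moved by no more than 0.718, the pooled SD over probes of a gene. That is a wide limit for the median of a list, and leaving the array uncentred, a shift of 0.137, could not pass it. Shifts inside it include the pan-leukocyte list, from 1.33 to 0.69 without the runs, and the annexin list, from 0.63 to -0.06. Those that moved further were endotoxin signalling at -0.44 and class I at 0.74 without the runs, and liver at -2.12 and the insulin-like growth factor axis at -1.54 with 2 or more probes. Over the 0, 7 and 21 h arrays they were complement at 1.45 and interferon at 2.35. Over the 7 and 21 h arrays alone, a setting added after seeing the data, complement stood at 1.39, cytokine receptors at 1.02, class I at 2.55 and interferon at 2.56. For 14 list settings fewer than 3 members remained. Of the named genes, Stfa3 turned to -1.81 over the 0, 7 and 21 h arrays and S100a4 to -0.61 without the runs; 87 values moved and 2209 did not. The cause was not tested. Without intensities, how far weak spots limit these ratios is unknown.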

Other observations

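Many of the repeating genes stood in no list, 126 on the macrophage side and 195 on the embryo side. The genes named here were chosen after their values were seen. On the macrophage side, Ms4a6b, a membrane protein of immune cells, had 2.80 (probes at 2.73 and 2.86), and 3.01 and 4.49 at 0.5 and 21 h of LPS. Rab32, a GTPase of lysosome-related organelles, had 2.32, Slc7a7, an amino acid transporter, 1.60 and the calcium channel Trpv2 1.66.

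On the embryo side, genes of the outer skin were prominent. Hrnr, the filaggrin-like hornerin, had -4.25 and came back at -4.52, -4.02, -4.80 and -4.02. Of 13 late cornified envelope genes (Lce) 8 were at least 2-fold lower and 0 higher, with a median of -1.37, led by Lce1f (-2.70) and Lce1g (-2.26). Of 17 keratin-associated protein genes (Krtap) 4 were lower (median -0.32). The heart hormone precursor Nppb had -4.02, the muscle carbonic anhydrase Car3 -3.15 over 3 probes, and the surface sialoglycoprotein Cd24a -2.15 over 8 probes from -2.97 to 0.32.

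Of 13 prolactin-family genes (Prl), 1 was higher, the Prl8a1 probe described above, and the family median was 0.19.

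Probes without a gene symbol leaned the other way from named ones. Of 4748 with a value at 0 h, 10.5% passed 2-fold on the macrophage side and 6.0% on the embryo side. For probes with 1 symbol the shares were 7.13% and 9.08%. On all 5 arrays 173 of them were higher and 120 lower, and they remain unnamed here.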
